A study of Mus musculus with 4 samples.

Results

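Barcodes that carry NK cell transcripts together with Itga1 or Cxcr6, called ILC1-like here, were described in single-cell RNA sequencing of mouse MC38b tumours. Members were chosen by raw counts of unique molecular identifiers (UMIs) of marker genes in each barcode. A member had at least 1000 UMIs, 500 genes and under 10% mitochondrial UMIs, and held at least 2 UMIs of Ncr1 and Klrb1c together and at least 2 of Itga1 and Cxcr6 together. It held no UMI of Cd3d or Cd3e, under 3 of Mki67 and Top2a together, at most 2 of C1qa, C1qb and C1qc together, and at most 2 of Lyz2. The rule found 923 members among 37588 barcodes, with 297 in the combination library, 277 in the anti-PD-1 library, 211 in PBS 1 and 138 in PBS 2. Of all 3955 barcodes that met every other criterion (NK barcodes), 408 held 1 UMI of Itga1 or Cxcr6. The other 2624 held none, 952, 780, 447 and 445 in the same library order, and serve as the comparison population (other NK barcodes). Because Itga1, Cxcr6, Ncr1, Klrb1c and the other genes of the rule chose the members, their levels are given without any test.

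The tumours came from mice given antibodies against PD-1 and TL1A together (combination, 1 library), an antibody against PD-1 alone (anti-PD-1, 1 library) or saline (PBS, 2 libraries). All were taken 24 h after dose 2. Cells of CD45+CD3+, CD45+CD3- and CD45-CD3- gates were sorted and remixed at 9, 9 and 2 parts, and 20000 were loaded per condition. The study text gives 4 treated and 2 saline replicates and says that cells were pooled before sorting, so p-values measure the spread between libraries, which may be technical, and the treated groups have no replicate. The labels give neither the mouse strain nor the age.

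NK cells and type 1 innate lymphoid cells (ILC1) are both innate lymphocytes that carry NKp46, encoded by Ncr1, and make interferon-gamma. Conventional NK cells circulate, depend on the T-box factor Eomes, carry the integrin CD49b (Itga2) and kill with perforin and granzymes. ILC1 stay in tissue, carry the integrin CD49a (Itga1) and often the chemokine receptor CXCR6, and use the death ligand TRAIL (Tnfsf10). In mouse tumours, TGF-beta has been described to move NK cells towards an intermediate state with CD49a and Eomes together. TL1A (Tnfsf15) is a ligand of the TNF family whose receptor is DR3 (Tnfrsf25).

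Members were deeper than other NK barcodes in every library. Their median was 10615, 9679, 12406 and 12726.5 UMIs in the combination, anti-PD-1, PBS 1 and PBS 2 libraries, against 4825, 3515.5, 5363 and 6238 UMIs in other NK barcodes. A rule that asks for 2 UMIs of a gene pair is met more readily by a deep barcode, so the comparison of the populations was repeated for barcodes of 3000 to 15000 UMIs. That window narrows the range of depth but does not match depth between the populations. The median mitochondrial share was also higher in members, at 2.99%, 2.98%, 2.98% and 2.79% against 2.45%, 2.29%, 2.47% and 2.18% in other NK barcodes, and its part in the differences was not tested. Summed over members, a library held 1875415 to 3318433 UMIs. The anti-PD-1 library shared 1778 barcodes with PBS 2 and 1255 with PBS 1, PBS 1 and PBS 2 shared 673, and the combination library shared 21 to 39 with any other. No barcode was a member in more than 1 library. Of the PBS 1 members, 22 had a barcode that also occurred in the anti-PD-1 library, with a median of 594 UMIs there and 23608.5 UMIs as members. Of the PBS 2 members this held for 20, at 537 and 22422 UMIs. Results that rest on these barcodes are given with and without them. The PBS pair of member sums differed by more than counting noise (chi-square of 2.56 per degree of freedom) and was kept as 2 samples by its labels. Different cells of 1 pool would also differ by more than counting noise, so this does not show separate sources.

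Itga1 carried the rule. In the combination, anti-PD-1, PBS 1 and PBS 2 libraries, 225, 240, 180 and 114 members held Itga1 UMIs without Cxcr6, 64, 34, 28 and 21 held both, and 8, 3, 3 and 3 held Cxcr6 alone. Itga1 stood at 428, 468, 359 and 374 counts per 1000000 UMIs of the members' sum (CPM), and Cxcr6 at 38.0, 21.5, 18.8 and 25.6 CPM. A Cxcr6 UMI was found in 24.2%, 13.4%, 14.7% and 17.4% of members. In macrophage barcodes of the same libraries, which should lack it and had medians of 17620, 10130, 19028.5 and 24149 UMIs, the share was 31.2%, 14.3%, 16.4% and 20.4%. Cxcr6 was thus not above that background as a share of barcodes, but the macrophages were deeper than members in every library. The shares were not matched for depth, and whether some macrophage barcodes also held lymphocyte transcripts was not tested. Ncr1 was close in both populations, at 327, 296, 298 and 355 CPM in members and 348, 356, 373 and 329 CPM in other NK barcodes. Klrb1c, the NK1.1 antigen, stood at 272, 310, 335 and 356 CPM in members, against 638, 698, 625 and 679 CPM in other NK barcodes. Just inside the threshold, 86, 75, 52 and 40 members had exactly 2 UMIs of Itga1 and Cxcr6, and just outside it 138, 131, 79 and 60 NK barcodes had 1.

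The members' transcriptome was set against that of other NK barcodes with both populations summed per library, the library as a block, and the genes of the rule left out. In edgeR's quasi-likelihood test 4083 of 11774 genes passed an adjusted p of 0.05, of which 2009 were higher and 2074 lower in ILC1-like barcodes, and 863 differed at least 2-fold. That is 34.7% of genes tested, 17.1% higher and 17.6% lower, and the median log2 fold change of all genes was 0.01. These shares are the background for every count of a gene list below. In barcodes of 3000 to 15000 UMIs 2889 of 11303 genes passed (25.6%), 1402 higher (12.4%) and 1487 lower (13.2%), and 2705 of them also passed without that limit.

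Among genes with a mean of at least 20 CPM, granzymes stood beside Ifitm1 (4.26), Igflr1 (3.80) and Cma1 (-4.17) at the top of the differences. Reads of Igflr1 are hard to assign, since 100% of the short stretches near its transcript end also occur in other genes. Its value is therefore uncertain. Granzymes are the serine proteases that cytotoxic lymphocytes release into target cells. Mouse Gzmc to Gzmg lie beside Gzmb in a cluster on chromosome 14, Gzmc at chr14:56231441-56234656 and Gzmb at chr14:56258838-56262260 (GENCODE M21 on GRCm38, minus strand), whereas Gzma lies at chr13:113093825-113100981. Promoter windows of 3 cluster genes that were higher in members and of Gzmb, which was lower, are shown to compare similar neighbours that were higher together with one that was lower. They run 5′ to 3′ from 250 bases before to 50 after the RefSeq start (GRCm38.p6, minus strand), with Gzmc at chr14:56234608-56234907, Gzmd at chr14:56132544-56132843, Gzme at chr14:56120576-56120875 and Gzmb at chr14:56262285-56262584. Capitals mark matches on either strand to RUNX (TGTGGT), CRE (TGACGTCA), T-box (TCACAC) or AP-1 (TGANTCA) letters.
Gzmc: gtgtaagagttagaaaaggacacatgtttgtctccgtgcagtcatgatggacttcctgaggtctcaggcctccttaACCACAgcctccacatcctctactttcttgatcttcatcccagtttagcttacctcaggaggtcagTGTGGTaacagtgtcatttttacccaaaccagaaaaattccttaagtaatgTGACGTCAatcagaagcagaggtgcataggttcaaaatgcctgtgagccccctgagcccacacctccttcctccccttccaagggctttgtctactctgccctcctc
Gzmd: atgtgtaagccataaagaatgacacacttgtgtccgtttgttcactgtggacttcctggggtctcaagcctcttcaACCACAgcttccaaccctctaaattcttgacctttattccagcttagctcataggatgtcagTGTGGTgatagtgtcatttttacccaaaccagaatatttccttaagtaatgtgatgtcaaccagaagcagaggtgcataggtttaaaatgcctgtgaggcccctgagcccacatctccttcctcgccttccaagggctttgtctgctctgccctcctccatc
Gzme: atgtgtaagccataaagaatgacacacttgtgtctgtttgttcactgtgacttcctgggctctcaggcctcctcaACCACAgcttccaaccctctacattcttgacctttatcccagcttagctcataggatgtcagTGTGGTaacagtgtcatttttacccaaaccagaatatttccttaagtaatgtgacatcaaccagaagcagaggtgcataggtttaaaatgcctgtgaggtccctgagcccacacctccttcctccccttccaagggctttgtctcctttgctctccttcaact
Gzmb: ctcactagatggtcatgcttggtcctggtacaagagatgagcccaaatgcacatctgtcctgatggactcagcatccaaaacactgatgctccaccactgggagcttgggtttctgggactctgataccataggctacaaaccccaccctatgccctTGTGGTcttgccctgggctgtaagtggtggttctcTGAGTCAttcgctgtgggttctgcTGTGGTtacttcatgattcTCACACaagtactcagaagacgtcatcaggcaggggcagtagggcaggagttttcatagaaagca
The Gzmc and Gzmd windows were 82.7% identical and Gzmd and Gzme 93.4%, whereas Gzmc and Gzmb were 46.2%, near the 43.8% between Gzmc and Gzma. The Gzmb window lies wholly upstream of the GENCODE gene given above, whereas the Gzmc window overlaps its gene. The windows may therefore not be placed alike, which limits this contrast. Each of the 5 windows of Gzmc to Gzmg held 2 RUNX matches, which 16.7% of 32544 promoter windows hold at least once, and those of Gzmc, Gzmf and Gzmg a CRE match, which 1.80% hold. The Gzmb window held 2 RUNX, 1 T-box and 1 AP-1 match, which 14.3% (T-box) and 7.79% (AP-1) of windows hold at least once. A match is a description of letters in the window, and no factor's binding was measured.

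Granzymes C, D, E and G were higher in ILC1-like barcodes, and granzymes A and B were lower. Gzmc stood at 4974, 7078, 4161 and 4892 CPM in members of the combination, anti-PD-1, PBS 1 and PBS 2 libraries, against 339, 1116, 391 and 147 CPM in other NK barcodes (log2 fold change 3.73 ± 0.51 SE, edgeR adjusted p 0.016). Populations did not overlap, but the share of all genes without overlap was not counted. Without PBS 1 the test gave 3.85 with an edgeR adjusted p of 0.072 and without the combination library 3.68 with 0.085. Gzmd stood at 550, 630, 167 and 241 CPM in members and 25.5, 62.7, 18.4 and 2.83 CPM in other NK barcodes (4.00 ± 0.42, edgeR adjusted p 0.0081). Without the combination library the Gzmd fold change was 3.77 with an edgeR adjusted p of 0.057. Gzme stood at 244, 310, 73.0 and 134 CPM in members and 13.7, 18.0, 6.48 and 1.88 CPM in other NK barcodes (4.28 ± 0.21, edgeR adjusted p 7.2e-06), and Gzmg, lower in all, also passed (4.50 ± 0.66). In barcodes of 3000 to 15000 UMIs Gzmg did not pass (3.83, edgeR adjusted p 0.097). Gzmf had 306, 715, 53.8 and 99.2 CPM in members and 68.6, 5.91, 0.72 and 0.942 CPM in other NK barcodes, and its 3.80 ± 0.99 did not pass (edgeR adjusted p 0.071). Without the combination library, where other NK barcodes held most, Gzmf passed at 6.89. Reads of these genes are hard to assign, since 21.1% to 45.5% of the 31-base stretches within 500 bases of the transcript end of Gzmd, Gzme, Gzmf and Gzmg also occur in other genes, but 4.04% of those of Gzmc.

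The cluster granzymes were carried by some members and not by others. A Gzmc UMI was found in 215, 218, 145 and 85 members, and a Gzmd UMI in 25.9%, 28.5%, 15.6% and 17.4% of members of the combination, anti-PD-1, PBS 1 and PBS 2 libraries. The Gzmd share was 2.73%, 2.44%, 0.895% and 0.225% in other NK barcodes and 4.81%, 1.02%, 0.753% and 0.583% in macrophages, at the median depths given above. The tenth of members with most Gzmd UMIs held 86.6%, 82.3%, 96.7% and 93.1% of all Gzmd UMIs.

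The granzymes and pore protein of conventional NK cells were lower but still abundant. Gzma, a tryptase, stood at 1902, 2562, 1700 and 2529 CPM in members, against 7861, 9506, 6394 and 7046 CPM in other NK barcodes (-1.79 ± 0.12, edgeR adjusted p 0.001). Gzmb stood at 841, 649, 611 and 782 CPM in members and 1845, 1331, 1498 and 1282 CPM in other NK barcodes (-1.002 ± 0.10, edgeR adjusted p 0.0008). Prf1, which encodes perforin, stood at 381, 497, 323 and 455 CPM in members and 698, 826, 573 and 670 CPM in other NK barcodes (-0.71 ± 0.06, edgeR adjusted p 3e-09). In none of these 3 genes did the populations overlap, again with no count over all genes to set beside it. The death ligand Tnfsf10 went the other way, with 144, 116, 147 and 160 CPM in members and 39.8, 52.6, 64.1 and 65.9 CPM in other NK barcodes (1.43 ± 0.10, edgeR adjusted p 1.1e-08), while Fasl was lower (-1.23). Of the 18 cytotoxic effector genes tested, 8 were higher and 8 lower, with a median log2 fold change of 0.03.

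**Figure D1:**
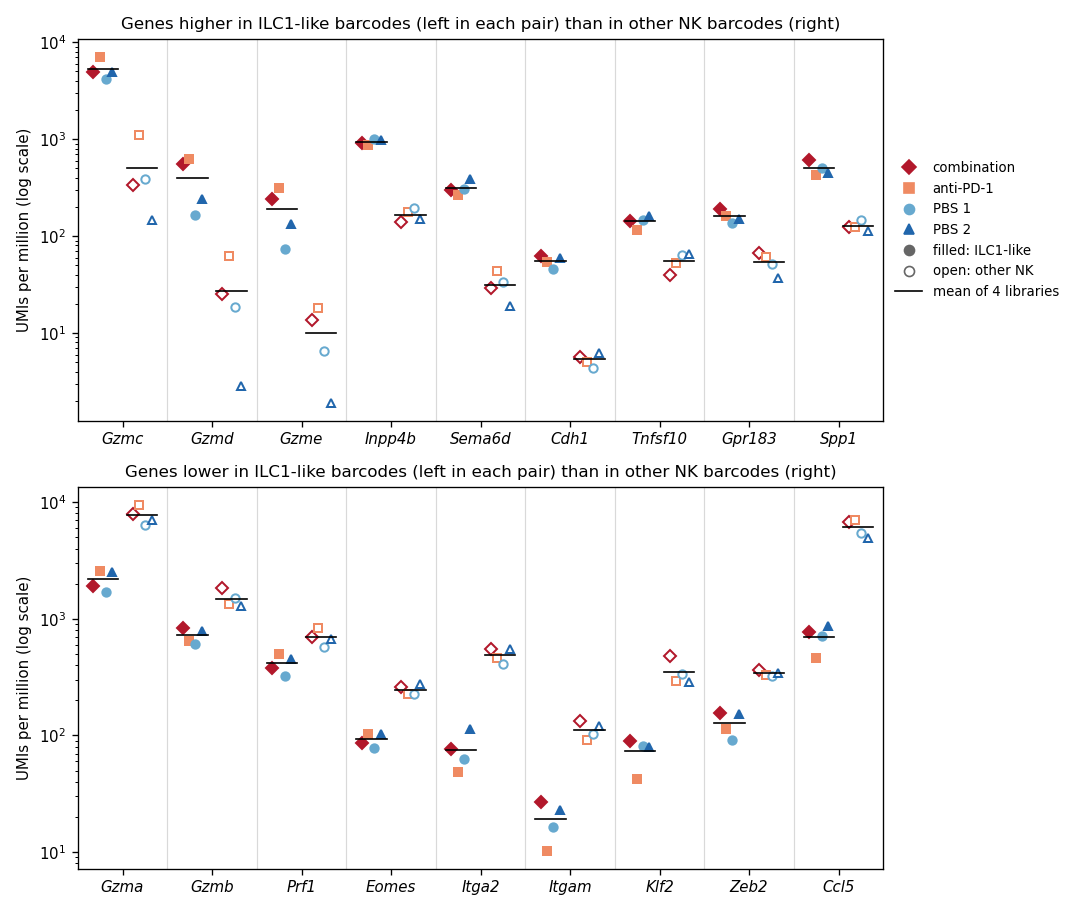
CPM (log axis) of 9 genes that were higher and 9 that were lower in ILC1-like barcodes, with 1 point per library, filled for ILC1-like and open for other NK barcodes, and a bar at the mean of the 4 libraries. In each gene the 4 filled points lie on 1 side of the 4 open ones, as with Gzma at 1700 to 2562 CPM against 6394 to 9506 CPM. How many of all genes do so was not counted.

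Genes of ILC1 and tissue residency were mostly higher. Of 23 genes in a list of ILC1 and tissue residency, 16 were higher in members, 4 lower and 3 (Itgae, Ahr and Hic1) did not pass, with a median log2 fold change of 0.82. For barcodes of 3000 to 15000 UMIs it was 16 higher and 3 lower. Inpp4b, a phosphoinositide phosphatase, stood at 911, 876, 996 and 985 CPM in members and 139, 178, 196 and 150 CPM in other NK barcodes (2.56 ± 0.07, edgeR adjusted p 5.7e-13), the tightest of these differences. Gpr183, an oxysterol receptor that guides lymphocyte movement, stood at 190, 160, 136 and 151 CPM in members and 66.1, 60.3, 51.8 and 37.4 CPM in other NK barcodes (1.60). Tmem176b, a membrane protein of innate lymphoid cells, was higher too (2.21), as were the chemokine Xcl1 (0.81), the integrin chains Itgav (0.99) and Itgb3 (0.97), the receptor Cd160 (1.22) and the transcription factor Ikzf2 (1.52). The Xcl1 call was lost without the anti-PD-1 library (0.82, edgeR adjusted p 0.058). Cd200r1 (1.32), an inhibitory receptor, lost its call without the combination library (0.89, edgeR adjusted p 0.13).

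Other ILC1 genes were scarce or went against the name. Il7r, the interleukin-7 receptor chain, was low in both populations, with 28.6, 19.7, 17.4 and 32.5 CPM in members and 19.8, 13.6, 14.8 and 22.9 CPM in other NK barcodes (0.51, edgeR adjusted p 0.0066). Zfp683, which encodes the residency factor Hobit, passed (edgeR adjusted p 1.6e-05) but reached only 3.92, 2.18, 7.99 and 7.998 CPM in members, against 0.191, 0, 0.72 and 0 CPM in other NK barcodes. Among the genes of the list that were lower were the activation and retention marker Cd69 (-0.53), with 117, 89.5, 87.9 and 115 CPM in members and 175, 158, 133 and 138 CPM in other NK barcodes, and the factor Prdm1 (-1.66).

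Genes of conventional NK maturation were lower almost throughout. Of 21 tested, 18 were lower, 2 (Klrg1 and Sidt1) did not pass and Ly6c2 was higher (1.37), with a median log2 fold change of -1.37. The count was the same, 18 lower and 1 higher, for barcodes of 3000 to 15000 UMIs and without barcodes that occur in more than 1 library. Itga2, the CD49b integrin chain, stood at 76.8, 48.4, 62.5 and 115 CPM in members and 548, 464, 406 and 551 CPM in other NK barcodes (-2.71 ± 0.15, edgeR adjusted p 5.7e-05). Klf2, which drives the genes for leaving tissue, stood at 90.4, 42.2, 80.6 and 79.4 CPM in members and 480, 293, 334 and 285 CPM in other NK barcodes (-2.23 ± 0.14, edgeR adjusted p 1.8e-05). The exit receptors S1pr1 (-2.51) and S1pr5 (-2.48), the integrin chain Itgam (-2.52), the factor Zeb2 (-1.39), the mast cell protease Cma1 (-4.17) and the Ly49 receptor Klra8 (-1.64) fell with them.

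Eomes was lower in members but not absent. It stood at 85.9, 103, 77.8 and 103 CPM in members and 260, 225, 225 and 274 CPM in other NK barcodes (-1.37 ± 0.08, edgeR adjusted p 1e-10). An Eomes UMI was found in 42.1%, 44.0%, 44.1% and 51.4% of members of the combination, anti-PD-1, PBS 1 and PBS 2 libraries. The share was 63.0%, 50%, 61.5% and 71.2% in the shallower other NK barcodes, and 10.1%, 4.34%, 5.72% and 5.83% in the deeper macrophages. Tbx21, which encodes the T-box factor T-bet that both lineages use, stood at 203, 207, 188 and 237 CPM in members and 250, 257, 225 and 256 CPM in other NK barcodes (-0.20, edgeR adjusted p 0.009). For barcodes of 3000 to 15000 UMIs the Tbx21 difference was 4.0e-05 on the log2 scale. Without the combination library its fold change was -0.17 with an edgeR adjusted p of 0.076. The members thus had higher residency genes and an Eomes UMI in 42.1% to 51.4% of barcodes, and the name ILC1-like is kept for the rule without placing them in either lineage.

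Members with an Eomes UMI were set beside those without one. This split was made after values were seen and is described without a test. The members with an Eomes UMI numbered 125, 122, 93 and 71 in the combination, anti-PD-1, PBS 1 and PBS 2 libraries, with medians of 10830, 10621.5, 14312 and 12856 UMIs, against 10458, 9016, 11951 and 12402 UMIs without. Cxcr6 stood at 10.5, 3.11, 1.48 and 4.16 CPM with an Eomes UMI and at 58.7, 37.6, 34.0 and 48.1 CPM without. Il7r showed the same order, at 5.60, 3.11, 2.22 and 19.8 CPM with and 46.0, 34.2, 30.7 and 45.9 CPM without an Eomes UMI. Cxcr6 is a gene of the rule and was not above the deeper macrophages as a share of barcodes, so nothing is read from its split. No Eomes UMI at this depth does not show absence. Inpp4b was 642, 613, 566 and 706 CPM with and 1113, 1107, 1376 and 1278 CPM without, so it was far above other NK barcodes in both. Gzma went the other way, at 2632, 3304, 2281 and 3697 CPM with an Eomes UMI and 1351, 1911, 1188 and 1301 CPM without. Gzmc did not follow the split, at 4349, 7393, 4281 and 3530 CPM with and 5445, 6801, 4056 and 6325 CPM without.

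**Figure D2:**
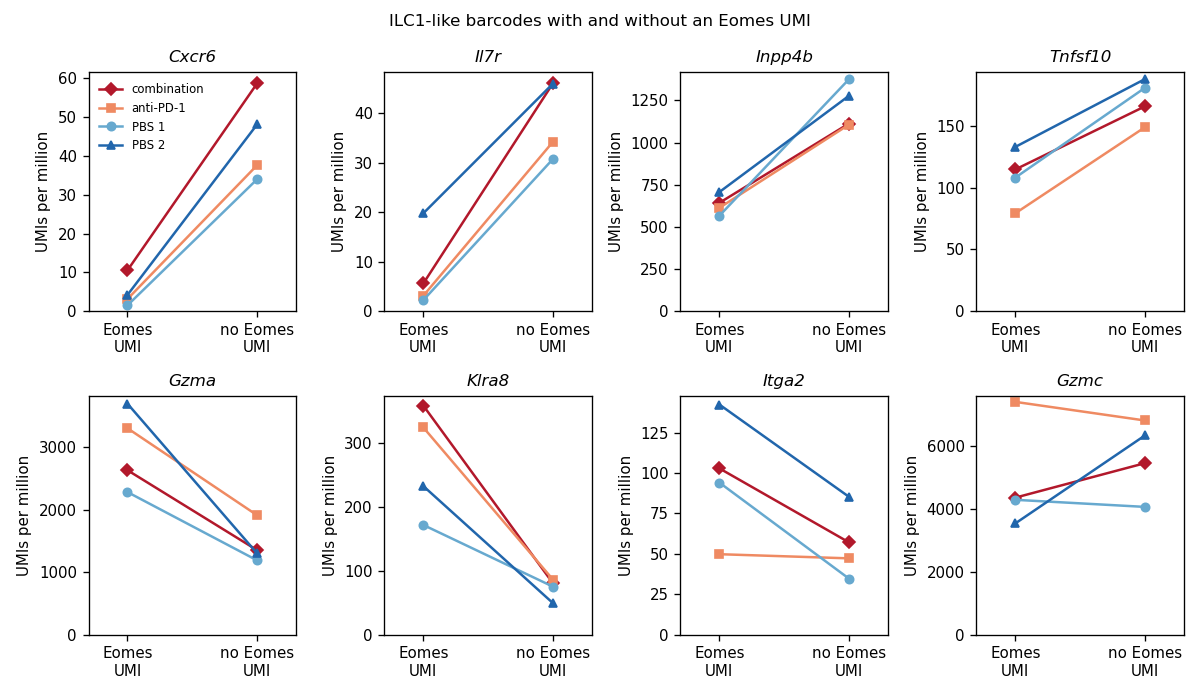
CPM of 8 genes in ILC1-like barcodes with an Eomes UMI (left in each panel) and without one (right), with 1 line per library. Cxcr6 and Il7r lie lower and Gzma higher with an Eomes UMI in all 4 libraries, whereas the Gzmc lines cross.

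The same genes were also followed along the number of Itga1 and Cxcr6 UMIs, as a description with no test. In NK barcodes with 0, 1, 2, 3 to 5 and 6 or more of these UMIs, Inpp4b stood at 139, 563, 692, 811 and 1140 CPM in the combination library and at 178, 596, 751, 875 and 954 CPM in the anti-PD-1 library, against 196, 799, 785, 947 and 1146 CPM in PBS 1 and 150, 561, 659, 856 and 1226 CPM in PBS 2. Barcodes just outside the threshold, with 1 UMI, lay between other NK barcodes and members in this gene in all 4 libraries. Gzmc in the combination library stood at 339, 1684, 2661, 4651 and 6649 CPM, and in the anti-PD-1 library at 1116, 3005, 5989, 6478 and 8456 CPM, against 391, 1675, 1980, 3315 and 6029 CPM in PBS 1 and 147, 397, 2316, 2914 and 7486 CPM in PBS 2. In PBS 2 its widest relative gap thus lay at the threshold, between 1 and 2 UMIs. Gzma was lower at 6 or more UMIs than at 0 in every library, at 7861, 3763, 2997, 1722 and 1451 CPM in the combination library and 9506, 4070, 2640, 2921 and 2096 CPM in the anti-PD-1 library, against 6394, 3490, 2406, 1463 and 1594 CPM in PBS 1 and 7046, 4862, 3769, 3681 and 1138 CPM in PBS 2. The order was broken by 1 stratum for Inpp4b in PBS 1 and for Gzma in the anti-PD-1 and PBS 1 libraries. Deeper barcodes hold more UMIs of every gene, and this order was not separated from depth.

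**Figure D3:**
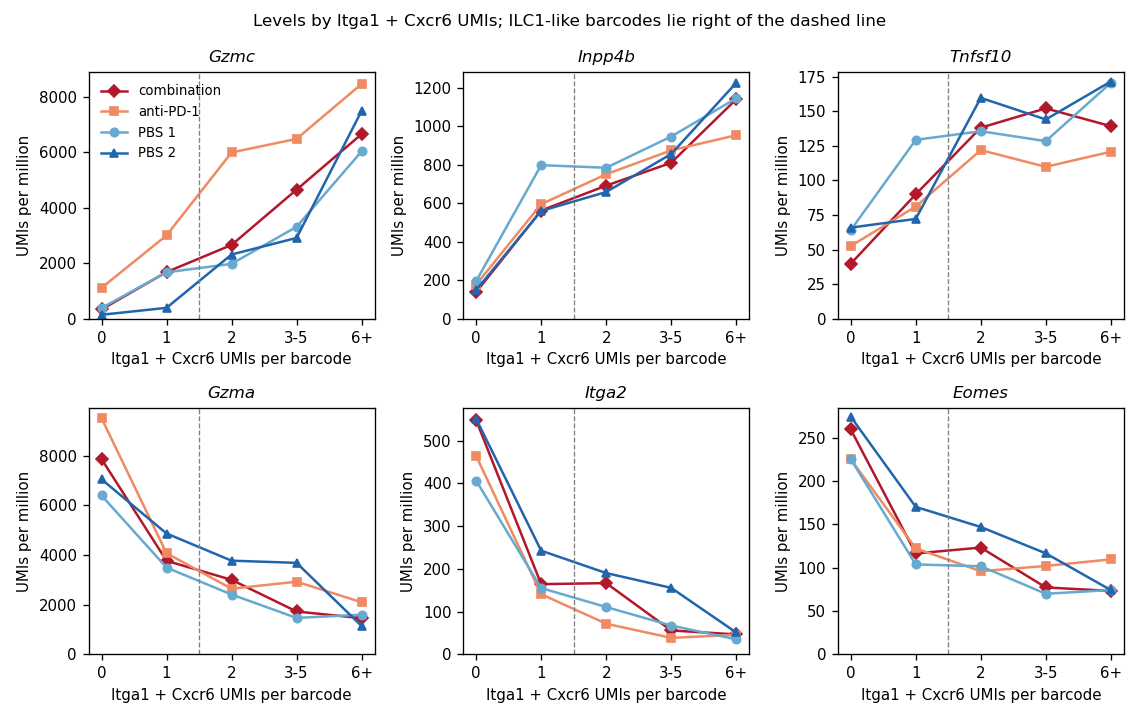
CPM of 6 genes in NK barcodes with 0, 1, 2, 3 to 5 and 6 or more UMIs of Itga1 and Cxcr6, with 1 line per library and a dashed line at the threshold, right of which barcodes are ILC1-like. In PBS 2, Inpp4b stands at 1226 CPM and Gzma at 1138 CPM at 6 or more UMIs, against 150 and 7046 CPM at 0, and Gzmc at 2316 CPM just inside the threshold, against 397 CPM just outside it.

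Genes outside the residency and maturation lists led the differences too. Cdh1, the adhesion protein E-cadherin, stood at 61.8, 53.9, 45.5 and 59.2 CPM in members of the combination, anti-PD-1, PBS 1 and PBS 2 libraries and 5.72, 5.02, 4.32 and 6.28 CPM in other NK barcodes (3.41 ± 0.14). Sema6d, a transmembrane semaphorin, stood at 302, 265, 307 and 384 CPM in members and 29.1, 43.7, 33.5 and 19.2 CPM in other NK barcodes (3.35, edgeR adjusted p 0.004). Spp1, the secreted protein osteopontin, stood at 609, 431, 509 and 443 CPM in members and 125, 124, 147 and 113 CPM in other NK barcodes (2.02 ± 0.07). The interferon-induced membrane proteins Ifitm1 (4.26) and Ifitm2 (3.23) and the adhesion-type receptor Adgrg3 (3.02) were also among the leading genes, although 26.6% of Ifitm1 and 51.5% of Ifitm2 end stretches occur in other genes.

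The chemokines Ccl3, Ccl4 and Ccl5 and the cytokine Ifng were lower in members, whereas the chemokine Xcl1, given above, was higher. Ccl5 stood at 765, 458, 706 and 870 CPM in members and 6804, 7021, 5452 and 4966 CPM in other NK barcodes (-3.09, edgeR adjusted p 0.0064), Ccl3 at 25.0, 19.7, 25.7 and 32.0 CPM in members and 225, 223, 221 and 230 CPM in other NK barcodes (-3.11 ± 0.09). Both, with Ccl4 (-2.41), encode chemokines that draw T cells and myeloid cells towards their source. Ifng, which both lineages make, stood at 62.1, 77.5, 107 and 114 CPM in members and 229, 233, 243 and 214 CPM in other NK barcodes (-1.35, edgeR adjusted p 0.0042). Populations did not overlap in any of these genes, but how common this was over all genes was not counted. Of 14 cytokines and chemokines tested, 6 were lower and 3 higher.

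Genes in a list of inhibitory checkpoint receptors, which also held the enzyme gene Entpd1, were mostly higher. Of 13 tested, 8 were higher and 2 (Tigit and Entpd1) lower, with a median log2 fold change of 0.57. Ctla4 stood at 235, 167, 136 and 147 CPM in members and 72.8, 60.0, 46.1 and 43.3 CPM in other NK barcodes (1.66), and Lag3 at 57.0, 45.1, 26.8 and 42.7 CPM in members and 14.5, 14.2, 6.12 and 5.02 CPM in other NK barcodes (2.13). Pdcd1, which encodes PD-1, the target of the antibody in both treated groups, was low at 17.5, 18.2, 4.52 and 32.5 CPM in members and 3.62, 3.84, 2.16 and 1.26 CPM in other NK barcodes (2.65, edgeR adjusted p 0.00023).

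Among the TNF family, Tnfsf11 (RANKL, 2.39), Ltb (1.45) and the costimulator Tnfrsf9 (0.50) were higher and the death receptor Fas (-1.44) was lower, in all 8 of 15 higher and 5 lower. The TL1A receptor was close to the limit of detection, with 2, 2, 0 and 1 Tnfrsf25 UMIs over all members of the combination, anti-PD-1, PBS 1 and PBS 2 libraries. A count of 0 in PBS 1 allows up to 1.04 CPM, for counting error only. No Tnfsf15 UMI was found in members of any library.

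Receptors for activating cytokines split by ligand. Il12rb2, a chain of the interleukin-12 receptor, stood at 387, 309, 324 and 432 CPM in members and 976, 820, 824 and 893 CPM in other NK barcodes (-1.24 ± 0.06), and the interleukin-18 receptor chain Il18r1 was lower too (-0.97). Il2ra, the high-affinity chain of the interleukin-2 receptor, was higher (1.40), as was the TGF-beta receptor chain Tgfbr2 (0.74), while Smad3, which carries its signal, was lower (-0.97). In counts, 6 of 18 cytokine receptors were higher and 7 lower, and 3 of 13 TGF-beta associated genes were higher and 8 lower (median -0.34). Of 18 chemokine and homing receptors, 5 were higher and 10 lower, among them Cxcr4 (-2.19), the bone marrow homing receptor. Of 28 NK receptor genes of the lectin-like and Ig-like families, 8 were higher and 11 lower.

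Early response and NF-kB genes were lower. Of 21 immediate early genes, 17 were lower and Egr3 higher (1.02), with a median log2 fold change of -0.49. The Egr3 call was lost in barcodes of 3000 to 15000 UMIs (1.13, edgeR adjusted p 0.078), without PBS 2 (0.74, edgeR adjusted p 0.060) and without the anti-PD-1 library (0.88, edgeR adjusted p 0.074). Nr4a1, a readout of antigen and activating receptor signals, stood at 44.3, 34.2, 46.2 and 35.7 CPM in members and 111, 85.7, 103 and 98.6 CPM in other NK barcodes (-1.27 ± 0.08). Of 19 NF-kB pathway genes, 14 were lower and none higher, with a median of -0.41. Its feedback inhibitor Nfkbia stood at 206, 134, 196 and 184 CPM in members and 443, 366, 417 and 382 CPM in other NK barcodes (-1.13), and Nfkbiz (-1.63) and the adhesion receptor Icam1 (-1.59) followed.  In barcodes of 3000 to 15000 UMIs, 16 immediate early and 12 NF-kB genes were lower.

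Respiratory chain genes were higher by small amounts. Of 41 tested, 33 were higher and 1 lower, with a median log2 fold change of 0.24, and Ndufc1 of complex I was at 90.4, 128, 125 and 139 CPM in members and 61.0, 108, 85.0 and 73.5 CPM in other NK barcodes (0.60). The count fell to 20 higher in barcodes of 3000 to 15000 UMIs, 18 with DESeq2 and 4 with no library block, so it depends on the fit. Of 25 glycolysis and hypoxia genes, 12 were higher and 4 lower, with Gapdh (0.71) among the first. Of 28 lymphocyte transcription factors, 5 were higher and 13 lower (median -0.26). Rora, a nuclear receptor of innate lymphoid cells, was higher (0.74, edgeR adjusted p 0.042), but the adjusted p was 0.070 without PBS 1, 0.15 without PBS 2 and 0.051 without the anti-PD-1 library. Type I interferon genes were 8 higher and 1 lower of 26, interferon-gamma response genes 5 higher and 7 lower of 25, MHC class I genes 8 higher and 4 lower of 18, heat shock genes 2 each way of 14, and cell cycle genes 4 higher and 5 lower of 24.

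In barcodes of 3000 to 15000 UMIs higher and lower genes numbered 6 and 8 for cytotoxic effectors, 8 and 2 for checkpoint receptors, 7 and 4 for the TNF family, 4 and 6 for cytokines and chemokines, 5 and 6 for cytokine receptors, 3 and 7 for TGF-beta associated genes, 5 and 9 for chemokine and homing receptors, and 9 and 10 for NK receptors. They numbered 9 and 4 for glycolysis and hypoxia, 4 and 12 for transcription factors, 5 and 5 for the interferon-gamma response, 9 and 2 for MHC class I and 2 and 1 for heat shock genes. Type I interferon genes gave 13 higher and 0 lower and cell cycle genes 1 higher and 5 lower.

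**Figure D4:**
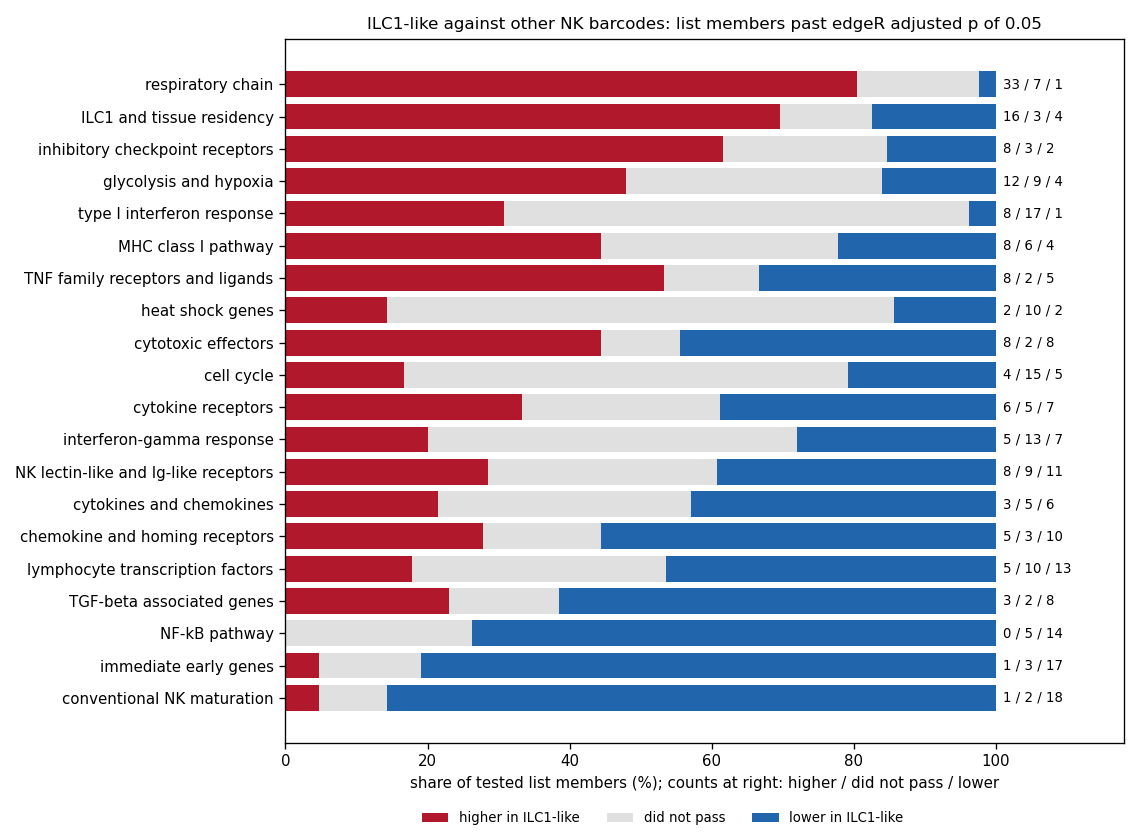
Share of each gene list (20 lists, horizontal bars) that was higher, did not pass or was lower in ILC1-like than in other NK barcodes at an edgeR adjusted p of 0.05. The residency list lies mostly on the higher side with 16 of 23, and the maturation list on the lower side with 18 of 21.

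Markers of other cells were followed beside these differences. The 16 T cell genes summed to 1049 to 1235 CPM in members and 1051 to 1200 CPM in other NK barcodes, with Foxp3 at 0 in the members of PBS 1. Much of that was Trbc1, whose transcripts NK cells make without a T cell receptor, at 431, 572, 424 and 524 CPM in members and 395, 487, 360 and 410 CPM in other NK barcodes (0.28). Cd3g was higher in members, at 21.7, 20.02, 38.9 and 46.4 CPM against 13.3, 8.87, 11.9 and 6.91 CPM in other NK barcodes (1.55, edgeR adjusted p 0.0081), and its edgeR adjusted p was 0.053 without PBS 1 (1.495). Of the T cell genes, 4 of 12 tested were higher and 3 lower. Genes of ILC2 and ILC3 summed to 172 to 242 CPM in members and 155 to 198 CPM in other NK barcodes, with Il13, Il22 and Il17a at 0 in members of every library and 1 of 6 tested higher. Monocyte and macrophage genes summed to 685 to 994 CPM in members and 454 to 597 CPM in other NK barcodes, with 3 of 9 higher and 3 lower and Adgre1 at 0 in members of the anti-PD-1 and PBS 2 libraries. Dendritic cell genes summed to 54.9 to 288 CPM in members and 151 to 240 CPM in other NK barcodes, with Clec9a and Siglech at 0 in all members and 2 of 8 lower. B and plasma cell genes summed to 97.6 to 141 CPM in members and 54.4 to 89.2 CPM in other NK barcodes, with 1 of 3 higher and 2 lower. Neutrophil and mast cell genes summed to 7.28 to 54.2 CPM in members and 3.96 to 200.05 CPM in other NK barcodes, with 5 of 7 lower, and tumour and stroma genes to 153 to 227 CPM in members and 141 to 183 CPM in other NK barcodes, with Krt8, Krt19 and Cldn4 at 0 in members and 1 of 5 higher. Without barcodes that held a Cd3g or Trac UMI, 3674 of 11463 genes passed, 3493 of them shared with the main comparison. This setting was added after the data were seen. Members kept were 239 of 297 (combination), 220 of 277 (anti-PD-1), 154 of 211 (PBS 1) and 107 of 138 (PBS 2). Other NK barcodes kept were 808 of 952, 701 of 780, 379 of 447 and 375 of 445 in that order. The planned criterion, which also left out Trbc1 and Trbc2 UMIs, kept 7, 5, 3 and 4 members, and 31 of 4028 genes passed. The part of other cells in the differences was not tested further. Of the barcodes with the highest Scrublet doublet scores, 8, 6, 5 and 1 were members. With the highest scores left out, 4104 of 11659 genes passed, 3972 of them shared with the main comparison.

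The share of members among NK barcodes was 21.4% in the combination library (exact Clopper-Pearson 95% interval 19.3% to 23.7%), 23.3% in the anti-PD-1 library (20.9% to 25.8%), 28.6% in PBS 1 (25.4% to 32.0%) and 21.5% in PBS 2 (18.3% to 24.8%). The anti-PD-1 value lay between the PBS pair and the combination value just below PBS 2, well inside its interval. The intervals cover counting error only, and those of PBS 1 and PBS 2 did not overlap. Without barcodes that occur in more than 1 library the shares were 21.5%, 23.2%, 26.6% and 19.3% in the same library order. Both treated values then lay between the PBS pair. With 1 library per treated group no test was made. With each barcode thinned to 4000 UMIs, which left out 301, 520, 119 and 47 shallower NK barcodes of the combination, anti-PD-1, PBS 1 and PBS 2 libraries, the shares were 13.2%, 19.4%, 13.8% and 10.1%. With barcodes of 3000 to 15000 UMIs the shares were 19.0%, 29.1%, 22.2% and 15.7%. In both settings the anti-PD-1 share was the highest, above both PBS shares by more than these differed from each other. Both settings cut the libraries unequally. The window kept 865 of 1188 NK barcodes with anti-PD-1 and 1223 of 1387 in the combination. In PBS 1 and PBS 2 it kept 627 of 737 and 555 of 643. Of members it kept 252 of 277 with anti-PD-1 and 232 of 297 in the combination. In PBS 1 and PBS 2 it kept 139 of 211 and 87 of 138 members. The part of these losses in the shares was not tested. After thinning to 1000 UMIs the shares were 2.27%, 1.59%, 3.17% and 1.01%, resting on 10, 6, 7 and 2 barcodes. Of these barcodes 6, 6, 6 and 1 were members before thinning, and the rest met the rule only after it. The order of libraries therefore changed with depth, and the sort and remix also set how many CD3- cells each library holds.

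Treated members were compared with PBS members on the 4 sums, with the spread taken from the PBS pair (residual degrees of freedom 1). Of 11040 genes, 4 were higher in the combination library, or 0.0362%, and 0 were lower, with edgeR's quasi-likelihood test at an adjusted p of 0.05. At an unadjusted p below 0.05 there were 683 genes, and DESeq2 called 1, Gzmd. In the anti-PD-1 library 15 genes passed (0.136%), 11 higher (0.0996%) and 4 lower (0.0362%), with 924 at an unadjusted p below 0.05. DESeq2 called 21, of which 20 were higher and 1 lower, and 4 of them passed in edgeR too. The comparisons with PBS share both PBS libraries. Of the 20 lists of functions, 1 had a member past the threshold in the combination comparison (cytotoxic effectors, 1 of 18 genes). In the anti-PD-1 comparison 5 had, with 3 of 18 cytotoxic effectors and 1 gene in each of the others. The lists of residency and of conventional NK maturation had medians of -0.02 and 0.14 in the combination and -0.06 and 0.10 in the anti-PD-1 comparison, against medians of -0.01 over all genes.

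Granzyme D was higher in both treated libraries, on UMIs held by a minority of members. By the shares given above, the tenth of members with most Gzmd UMIs held most of them in every library. By the levels given above, other NK barcodes of both treated libraries also held more Gzmd than those of either PBS library. Gzmd stood at 550 CPM in the combination and 630 CPM in the anti-PD-1 members, against 167 CPM in PBS 1 and 241 CPM in PBS 2 (combination log2 fold change 1.43 ± 0.18, edgeR adjusted p 0.0028, and anti-PD-1 1.77 ± 0.18, edgeR adjusted p 4.9e-05). It held with each PBS library left out, at 1.19 to 1.68 in the combination and 1.55 to 2.03 in the anti-PD-1 comparison, values that then had no test. Without barcodes that occur in more than 1 library the fold changes were 2.29 and 2.64, larger than with them. This setting took out 22 and 20 members of PBS 1 and PBS 2, but 4 of anti-PD-1 and 0 of the combination. The part of this imbalance in the larger values was not tested. Gzmg stood at 15.1 CPM in the combination and 84.1 CPM in the anti-PD-1 members, against 5.21 and 10.1 CPM in PBS members, and was higher with anti-PD-1 (3.66, edgeR adjusted p 1.3e-07). Gzmf stood at 306 and 715 CPM in the combination and anti-PD-1 members, against 53.8 and 99.2 CPM in PBS members, and passed with anti-PD-1 (3.40, edgeR adjusted p 0.025). A single anti-PD-1 barcode held 422 of the 1964 Gzmf UMIs, and without it the anti-PD-1 members stood at 565 CPM. Gzmc, the most abundant of the cluster, gave 0.12 (edgeR adjusted p 0.98) in the combination and 0.78 (0.25) in the anti-PD-1 comparison, and Gzme 1.25 (0.68) and 1.75 (0.37). Without barcodes that occur in more than 1 library, Gzme passed in both comparisons at 1.84 and 2.31, and Gzmc with anti-PD-1 at 1.07.

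Besides granzymes, the anti-PD-1 members were higher in the interferon-induced membrane proteins. Ifitm3 stood at 235 CPM in the combination and 356 CPM in the anti-PD-1 members, against 148 and 168 CPM in PBS members (anti-PD-1 1.31, edgeR adjusted p 4.9e-05), and Ifitm2 at 487 and 795 CPM, against 289 and 408 CPM in PBS members (1.33, edgeR adjusted p 0.00085). The integrin chain Itgb3 (0.93) and AA467197 (1.16), the transcript also known as Nmes1, were higher too, the second at 130 CPM in the combination and 167 CPM in the anti-PD-1 members, against 83.7 and 80.0 CPM in PBS members. The factor Cebpb stood at 85.0 CPM in the combination and 18.6 CPM in the anti-PD-1 members, against 62.2 and 44.3 CPM in PBS members, and was lower with anti-PD-1 (-1.41, edgeR adjusted p 0.027). Ccl4 stood at 172 and 92.4 CPM, against 216 and 205 CPM in PBS members, and was lower with anti-PD-1 (-1.06, edgeR adjusted p 0.0044). Hspa1a, a stress-induced chaperone, had 68 UMIs in the combination and 1 UMI in the anti-PD-1 members, against 32 and 21 UMIs in PBS members (anti-PD-1 edgeR adjusted p 0.005).

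In the combination members 3 of the 4 genes that passed rested on 1 barcode each. Il12b had 59 UMIs, 58 of them in 1 barcode of 26759 UMIs. Acod1 had 61 UMIs and S100a9 68 UMIs, of which 56 and 64 lay in 1 barcode of 24210 UMIs. These are genes of myeloid cells, and without that barcode S100a9 stood at 1.21 CPM in the combination members, against 0.695 and 2.13 CPM in PBS members. Its fold change was 3.92 (edgeR adjusted p 0.0056), and 3.24 without PBS 1 and 4.76 without PBS 2. Of the genes nearest to the threshold, the factor Etv6 stood at 237 CPM in the combination and 126 CPM in the anti-PD-1 members, against 136 and 132 CPM in PBS members (combination 0.80, edgeR adjusted p 0.055). Ctla4, at 235 and 167 CPM against 136 and 147 CPM in PBS members, gave 0.71 (edgeR adjusted p 0.089), and Ifng, at 62.1 and 77.5 CPM against 107 and 114 CPM in PBS members, gave -0.85 (edgeR adjusted p 0.089). These 3 passed without barcodes that occur in more than 1 library, at 0.73 for Etv6, 0.77 for Ctla4 and -0.91 for Ifng. That setting took out mostly PBS members.

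**Figure D5:**
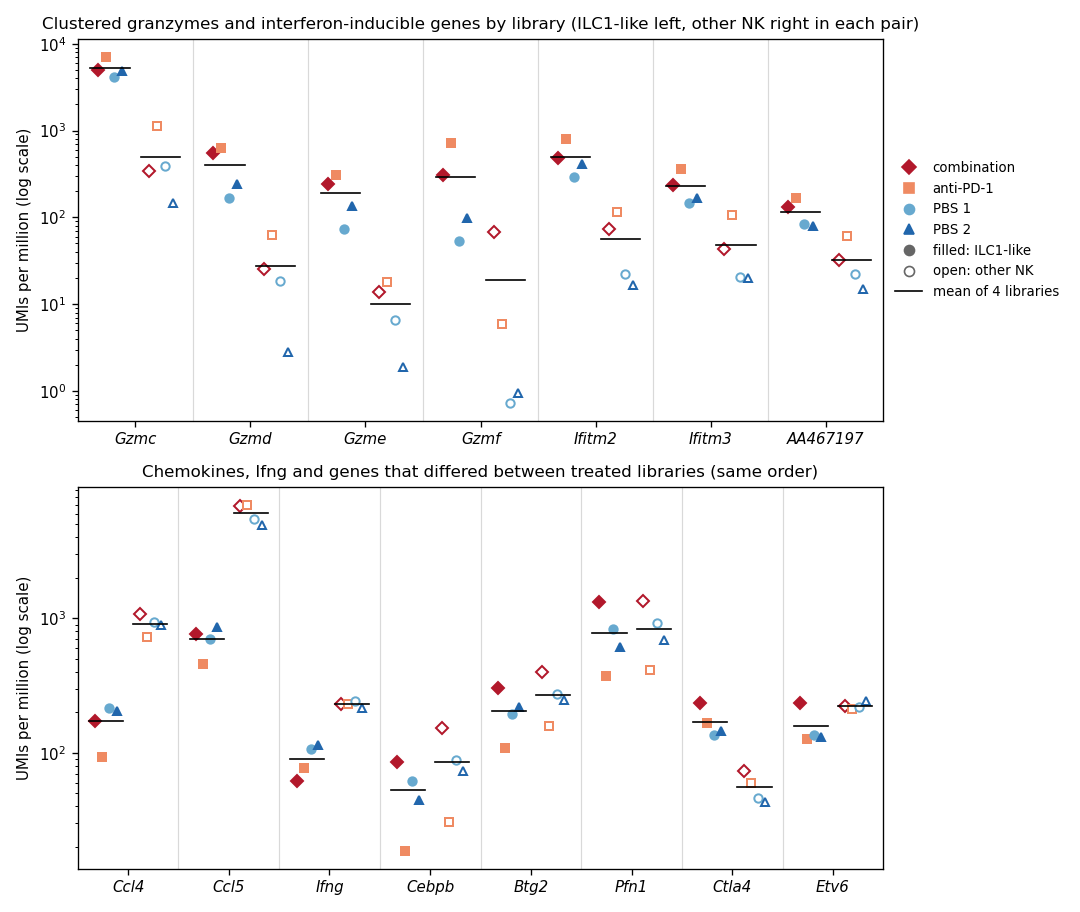
CPM (log axis) by library (combination, anti-PD-1, PBS 1 and PBS 2) of granzyme and interferon-induced genes (upper panel) and of chemokines, Ifng and genes that differed between treated libraries (lower panel), filled for ILC1-like and open for other NK barcodes. Gzmd lies at 550 and 630 CPM in the treated members and at 167 and 241 CPM in the PBS members.

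The combination members were also set against the anti-PD-1 members, a comparison of 2 libraries and not of conditions. In this comparison 23 of 11040 genes passed (0.208%), 14 higher (0.127%) and 9 lower (0.0815%) in the combination, with 1031 at an unadjusted p below 0.05. The balance depended on the method, since DESeq2 called 2 higher and 24 lower, with 5 of these 26 shared, and thinning to 1000 UMIs gave 3 higher and 15 lower, also with 5 shared. Pfn1, the actin-binding protein profilin, stood at 1315 CPM in the combination and 373 CPM in the anti-PD-1 members, with 832 and 609 CPM in PBS members (1.67, edgeR adjusted p 0.002). Btg2, an antiproliferative early response gene, stood at 302 CPM in the combination and 108 CPM in the anti-PD-1 members, with 195 and 219 CPM in PBS members (1.32, edgeR adjusted p 0.0009). Cebpb (2.04), Zfp36 (1.47), which destabilises cytokine mRNA, and Fos (1.003) were higher as well, and Gzmg (-2.63), Lgals3 (-1.04), Cdk8 (-1.38) and Lars2 (-1.05) lower. In 7 of these 9 genes the PBS members lay between the treated libraries. Pfn1 and Btg2 differed in the same direction in other NK barcodes, where Pfn1 stood at 1343 CPM in the combination, 411 CPM with anti-PD-1 and 922 and 690 CPM in PBS, and Btg2 at 400 CPM, 158 CPM and 275 and 248 CPM.

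Whether treatment differences were particular to members was tested as an interaction with other NK barcodes (residual degrees of freedom 1). For the combination, 14 of 11774 genes passed (0.119%), 5 higher (0.0425%) and 9 lower (0.0764%), with 558 at an unadjusted p below 0.05, and for anti-PD-1 17 passed (0.144%), 2 higher (0.017%) and 15 lower (0.127%), with 577. Ifng differed in the combination comparison (-0.86, edgeR adjusted p 0.01), since it was lower in combination than in PBS members but not in other NK barcodes, at 229 CPM in the combination against 243 and 214 CPM in PBS. Etv6 differed likewise (0.82, edgeR adjusted p 0.003), with 224 CPM in other NK barcodes of the combination library against 219 and 243 CPM in PBS. Ccl5 differed in the anti-PD-1 comparison (-1.17, edgeR adjusted p 6e-05), with 458 CPM in members against 706 and 870 CPM in PBS members, but 7021 CPM in other NK barcodes against 5452 and 4966 CPM in PBS. Ccl4 did so too (-0.82, edgeR adjusted p 0.0069). Ifitm1, Ifitm2 and Ifitm3 had negative anti-PD-1 interactions, as with Ifitm3 (-1.18, edgeR adjusted p 0.00047), at 107 CPM in other NK barcodes of the anti-PD-1 library against 20.5 and 20.1 CPM in PBS. In barcodes of 3000 to 15000 UMIs, Ccl5 (-1.80) and Ccl4 (-0.93) still passed with anti-PD-1, as did Ifitm2 (-1.28), whereas Etv6 (0.64, edgeR adjusted p 0.19), Ifng (-0.77, 0.14), Ifitm3 (-0.54, 1) and Ifitm1 (-0.13, 1) did not. DESeq2 called 1 gene in the combination and 0 in the anti-PD-1 interaction.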

How the data were processed

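Droplet-based single-cell RNA sequencing of 4 libraries was used, 1 of the combination, 1 of anti-PD-1 and 2 of PBS, grouped by their titles and treatment labels. The authors deposited raw UMI counts per gene and barcode, with 32285 genes and 6448 to 13231 barcodes per library. Cell Ranger 3.0.2 and mm10 stand in the submitters' processing notes, but per the file headers the matrices come from Cell Ranger 7.1.0. The handling of intronic reads and of strand is not given in the sources used. The libraries held 78648222 to 142600208 UMIs in all.

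Barcodes with at least 1000 UMIs and 500 genes and under 10% mitochondrial UMIs were kept (5535 to 10624 per library). Raw counts of members, and of NK barcodes without an Itga1 or Cxcr6 UMI, were summed per library and tested with edgeR 4.0.16 (TMM, filterByExpr with a minimum count of 10, robust quasi-likelihood fit, Benjamini-Hochberg adjustment over all genes tested, threshold 0.05). The deposited counts were used as they stand. CPM are counts per 1000000 UMIs of the sum, folds are on edgeR's log2 scale, and SE is the fold divided by the root of F. The treatment fits have 1 residual degree of freedom, so the spread leans on the prior shared across genes, and the lone treated libraries are assumed to vary like the PBS pair. Scripts were tested on simulated data. DESeq2 1.42.0, other normalization and filters, thinning, depth windows, left-out libraries, left-out shared barcodes and Scrublet (scanpy 1.11.5, top scores at 0.8% per 1000 barcodes, none removed in the main analysis) were alternatives. Macrophage barcodes used as background held at least 10 UMIs of C1qa, C1qb and C1qc together.

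The members, the 27 gene lists and the rule for named genes were chosen with earlier results of these data known. Named are the 10 passing genes with the largest change in each direction at a mean of at least 20 CPM, then list members past the threshold or most abundant, and a short set of markers, shown here as far as they bear on the members; Gm, Rik and mitochondrial genes were left out of the treatment comparisons. Some single genes are not reported here. The Eomes split and the view by number of Itga1 and Cxcr6 UMIs are descriptions. Genes that share over 10% of their 31-base end stretches with other genes were treated as uncertain. Besides those named in the results these were Klra8 (44.5%), Klra5 (14.7%), Cma1 (23.8%), S100a4 (58.1%), Ly6c2 (47.7%), Il7r (14.1%), AA467197 (10.4%), Ifi204 (18.5%), Gapdh (41.7%), Ifitm3 (28.3%), Tigit (14.4%) and Trbc1 (19.6%). Intervals and floors cover counting error only.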

Additional observations from a re-analysis of the deposited data

Results flagged for a closer look

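These results were picked out because the difference from PBS differed between ILC1-like and other NK barcodes in a test of that difference (edgeR quasi-likelihood interaction, all adjusted p under the threshold). A negative value means a smaller rise or a larger drop in ILC1-like barcodes.

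In the combination comparison the interaction was 0.82 for Etv6 (edgeR adjusted p 0.003), 0.69 for Rora (0.043), -4.36 for Gzmf (6.4e-13), -1.78 for Klra5 (1.1e-06), -1.47 for Ifitm2 (0.003), -0.93 for S100a4 (0.00065) and -0.86 for Ifng (0.01). The Gzmf value rests on other NK barcodes of PBS that were near the floor. By the levels given above, Gzmf was higher in the combination than in PBS in both populations. Rora, a nuclear receptor, stood at 306 CPM in ILC1-like barcodes of the combination library against 206 and 236 CPM in PBS, and at 127 CPM in other NK barcodes of the combination library against 154 and 149 CPM in PBS. Klra5, a Ly49 receptor gene, stood at 66.0 CPM in ILC1-like barcodes of the combination library against 154 and 97.0 CPM in PBS, and at 32.4 CPM in other NK barcodes of the combination library against 22.3 and 14.4 CPM in PBS. S100a4, a calcium-binding protein, stood at 757 CPM in ILC1-like barcodes of the combination library against 1097 and 856 CPM in PBS, and at 169 CPM in other NK barcodes of the combination library against 150 and 88.9 CPM in PBS.

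In the anti-PD-1 comparison it was 1.61 for Ifi204 (edgeR adjusted p 0.023), 0.66 for Klra8 (0.043), -1.49 for Ifitm1 (0.0069), -1.33 for Ifitm2 (0.0085), -1.18 for Ifitm3 (0.00047), -1.17 for Ccl5 (6e-05), -1.17 for Timp2 (0.039), -1.15 for S100a4 (8.4e-06), -0.82 for Ccl4 (0.0069), -0.74 for S100a6 (0.0069) and -0.62 for Vim (0.043). S100a6, a second calcium-binding protein, stood at 2107 CPM in ILC1-like barcodes of the anti-PD-1 library against 1920 and 1584 CPM in PBS, and at 1126 CPM in other NK barcodes of the anti-PD-1 library against 627 and 474 CPM in PBS.

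Without barcodes that occur in more than 1 library, Rora (edgeR adjusted p 0.056), Ifi204 (0.09), Klra8 (0.1), Ifitm1 (0.4), Ifitm3 (0.12), Timp2 (0.97) and Vim (0.2) no longer passed. In barcodes of 3000 to 15000 UMIs the combination interactions of Klra5 (-0.87, edgeR adjusted p 0.75), Ifitm2 (-0.82, 0.25), S100a4 (-0.47, 0.53), Etv6 (0.64, 0.19) and Ifng (-0.77, 0.14) no longer passed. In the same barcodes the anti-PD-1 interactions of Ifitm1 (-0.13, edgeR adjusted p 1), Ifitm3 (-0.54, 1), Ifi204 (1.002, 0.92), Timp2 (-0.75, 1), S100a6 (-0.42, 0.37) and Vim (-0.34, 0.97) no longer passed either. The cause was not tested.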

How the results depend on the processing

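ILC1-like against other NK barcodes gave 3249 to 3740 genes with 1 library left out and 2522 with no replicate block, against 4083 with the library as a block, while DESeq2 called 2058, thinning each barcode to 1000 UMIs left 1290, and leaving out barcodes with a Cd3g, Trac, Trbc1 or Trbc2 UMI, which kept 3 to 7 members per library, left 31. Leaving out barcodes with a Cd3g or Trac UMI gave 3674 genes and the Scrublet removal 4104. With no block, Gzmg, Il7r, Tbx21, Ndufc1 and Trbc1 lost their calls among the genes named. No paired analysis was possible for the treatments because the treated groups have 1 library each, and their leave-one-out values have no residual degrees of freedom.

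Counts of genes in the treatment comparisons moved with most settings. Among members, leaving out barcodes of more than 1 library fell mostly on PBS. For the combination against PBS, DESeq2 called 1, DESeq2 size factors 2, the Scrublet removal 2, the strict T cell receptor criterion 1, an Itga1 and Cxcr6 sum of 3 or more 8, thinning 8, no Cd3g or Trac UMI 22, no filter on low counts 49 and leaving out barcodes of more than 1 library 76. For anti-PD-1 against PBS they were 1 (strict receptor criterion), 38 (no filter), 42 (no Cd3g or Trac UMI) and 84 (barcodes of more than 1 library left out). For the combination against anti-PD-1 they were 0 (strict receptor criterion), 11 (Scrublet), 12 (size factors), 68 (no filter) and 92 (barcodes of more than 1 library left out). The combination interaction gave 0 (thinning, strict receptor criterion), 1 (DESeq2), 7 (3000 to 15000 UMIs), 24 (no filter), 25 (Scrublet), 32 (barcodes of more than 1 library left out), 35 (sum of 3 or more), 45 (no Cd3g or Trac UMI) and 75 (other NK barcodes with 0 or 1 UMI). The anti-PD-1 interaction gave 0 (DESeq2), 1 (thinning, strict receptor criterion), 27 (sum of 3 or more), 28 (no filter), 42 (Scrublet), 44 (other NK with 0 or 1) and 49 (no Cd3g or Trac UMI). The cause was not tested.

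Shares of NK barcodes in the combination, anti-PD-1, PBS 1 and PBS 2 libraries became 15.2%, 17.0%, 21.6% and 15.2% with a sum of 3 or more, 5.38%, 3.31%, 4.69% and 11.1% with the strict receptor criterion, 2.27%, 1.59%, 3.17% and 1.01% after thinning to 1000 UMIs, 13.2%, 19.4%, 13.8% and 10.1% after thinning to 4000, and 19.0%, 29.1%, 22.2% and 15.7% at 3000 to 15000 UMIs.

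Reversed directions came from the strict receptor criterion, except Tbx21 at 3000 to 15000 UMIs (4.0e-05). Against other NK barcodes they were Ikzf2 (-0.35), Cd69 (0.24), Ly6c2 (-0.36), Tbx21 (0.23), Tnfrsf9 (-0.34), Fas (0.021), Nr4a1 (0.30), Ndufc1 (-0.93) and Rora (-0.00403). In the combination they were Ifng against PBS (0.43) and the interactions of Ifitm2 (8.59) and Ifng (1.199), and in the anti-PD-1 interaction Klra8 (-8.88), Ifitm2 (7.47), Ifitm3 (6.998), S100a4 (0.68) and S100a6 (0.52). With so few members these values have little precision. The alternatives added after the data were seen were leaving out Cd3g or Trac UMIs, thinning to 4000 UMIs, the depth window for shares and leaving out the barcode with most UMIs of a gene.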
